A study of Mus musculus with 6 samples.

Results

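The 10 genes described here encode lysosomal cathepsins, and were chosen by name from the 16836 genes of a deposited expression table: Ctsa, Ctsb, Ctsc, Ctsd, Ctsf, Ctsh, Ctsk, Ctsl, Ctss and Ctsz. All 10 were found in the table, and all 10 were among the 12118 genes tested, which reached a level of 1 CPM (read counts brought to a shared library size) in 3 or more libraries. Polyadenylated RNA came from bone marrow-derived macrophages, cells matured in culture from marrow precursors, of Ube3a knockout mice (KO, Ube3a-/-) and of wild-type littermates (WT). Each genotype had 3 libraries, and no treatment is named. Ube3a encodes an E3 ubiquitin ligase, and the comparison asks how its loss alters macrophage transcripts. The labels give no age, sex, strain, allele or culture protocol and do not say whether a library is 1 animal. P-values here therefore speak of the spread among these libraries, part of which may be technical.

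Cathepsins are the proteases of the endosome and lysosome. They are made as inactive proenzymes, are carried to the lysosome largely by mannose 6-phosphate receptors, and become active once the propeptide is removed in the acid compartment. Most are cysteine proteases of the papain family (B, C, F, H, K, L, S and Z), whereas cathepsin D is an aspartic protease and cathepsin A a serine carboxypeptidase. In macrophages they break down engulfed material, trim antigens and the invariant chain for MHC class II, and can be secreted to cut extracellular matrix.

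The libraries held 25454862 to 35517269 reads in the table. Ube3a itself averaged 69.3 ± 7.94 CPM in KO and 192.8 ± 14.8 in WT (SD, n = 3 per genotype), and fell past the threshold (limma, adjusted p = 0.00444). Summed over all 9, the macrophage markers were high in every library, at 13767 to 16328 CPM in KO and 14942 to 15740 CPM in WT. The sum does not stand for each marker. Fcgr1, for example, stood at 85.6, 161.9 and 117.7 CPM in WT replicates 1 to 3. In KO replicates 1 to 3 it stood at 188.3, 154.4 and 174.2 CPM. Of the 9, 0 changed with genotype (limma, adjusted p under 0.05). Replicate 2 of both genotypes stands apart by Xist, with 28 reads (KO) and 14 reads (WT) where the other 4 libraries had 30161 to 42232, and the tests of the cathepsins are also given without it. Markers of other cells were low, apart from the sum of the osteoclast list. The 9 neutrophil and granule markers measured summed to 8.20 to 21.3 CPM in KO and 10.2 to 32.7 CPM in WT, and 4 of them had no read in at least 1 library. The 5 osteoclast markers measured stood higher, with a sum of 115.4 to 133.9 CPM in KO and 104.2 to 158.6 CPM in WT. Of these, Acp5 (1.51 to 3.24 CPM) and Dcstamp (7.29 to 13.0 CPM) were low, and most of the sum came from Nfatc1, Itgb3 and Mmp9. The sum alone does not show that osteoclasts were present. The dendritic, B, mast cell and fibroblast markers measured summed to under 1 CPM in each library. The T cell and erythroid markers listed were not found by name among the 16836 genes, so no level is given. In RNA from whole cultures, fewer cells of a type and less RNA per cell cannot be told apart.

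Together the 10 cathepsins took 1.97%, 1.94% and 1.79% of the reads of KO replicates 1 to 3. In WT replicates 1 to 3 they took 1.45%, 1.93% and 1.51%. The share was high in every KO library and in WT replicate 2, and low in WT replicates 1 and 3. More than any other member, Ctsb filled this share: it held 59.2% to 60.2% of the cathepsin reads in KO, and 53.9%, 59.8% and 55.8% in WT replicates 1 to 3.

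To compare genes with each other, levels were divided by the merged exon length of each gene in GENCODE M21. On this scale (CPM per kb, mean ± SD over the 6 libraries) the order ran from Ctsb at 1702 ± 298.6 to Ctsd at 1242 ± 232.2, Ctss at 719.1 ± 134.9 and Ctsz at 450.8 ± 76.4. Below them stood Ctsl at 219.1 ± 34.7, Ctsa at 178.1 ± 22.8 and Ctsc at 85.4 ± 3.26. The last members were Ctsh at 10.4 ± 0.647, Ctsk at 0.952 ± 0.191 and Ctsf at 0.772 ± 0.115 CPM per kb.

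Most neighbours in this order were apart in every library. Ctsb and Ctsd overlapped in range between libraries, although Ctsb was the higher in 6 of 6. Of the merged exon bases, 808 of 2351 in Ctsd and at most 774 of 6051 in Ctsb are shared with another gene. How reads there were counted is not stated, so the order of this pair may depend on them. Ctsl was above Ctsa in 4 of 6 libraries and Ctsk above Ctsf in 5 of 6, with overlapping ranges in both pairs. The levels also depended on the length used. With the length of the longest transcript, Ctsb came to 2171, Ctsc to 154.0 and Ctsh to 17.1 CPM per kb. By this length Ctsl and Ctsa came to 230.5 and 230.4 CPM per kb, and Ctsf, at 1.86, stood above Ctsk, at 0.952.

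**Figure D1:**
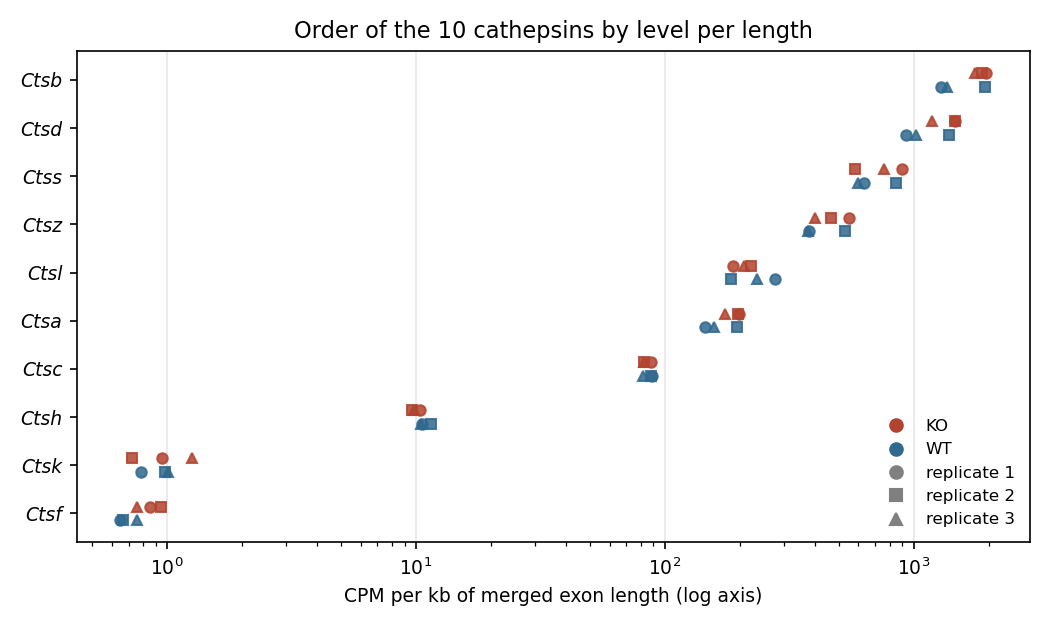
Level of each cathepsin in CPM per kb of merged exon length (log axis), with 1 point per library, coloured by genotype and shaped by replicate. Ctsb, Ctsd, Ctss and Ctsz lead, and Ctsk and Ctsf lie near 1 CPM per kb.

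Transcription factors of the MiT/TFE family bind E-box letters near the start of many lysosomal genes, so the promoters of the members were read for these letters. RefSeq windows on GRCm38.p6 (250 bases before to 50 after a start site) were found for 8 of the 10 members, not for Ctsb or Ctsh. The core CACGTG, which reads the same on both strands, was present in 4 of the 8 (Ctsa, Ctsd, Ctsf and Ctsl), and in 7.15% of all 32851 windows. The longer TCACGTGA, which contains that core, was present in Ctsa and Ctsd, and in 0.974% of all windows. With a G before and a C after that run of letters, the match was found in none of the 8 and in 0.326% of all. The copies before the start site follow 5′ to 3′ on the strand of the gene, with CACGTG in capitals, so that the members with the longer match can be read beside those with the core alone.
Ctsa, chr2:164833749-164833772, plus strand: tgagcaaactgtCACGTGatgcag
Ctsd, chr7:142387908-142387937, minus strand: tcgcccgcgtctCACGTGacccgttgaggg
Ctsd, chr7:142388055-142388077, minus strand: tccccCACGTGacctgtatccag
Ctsf, chr19:4855074-4855103, plus strand: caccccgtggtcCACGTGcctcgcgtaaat
Ctsl, chr13:64370739-64370768, minus strand: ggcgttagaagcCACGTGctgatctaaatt

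The first capital lies 12 bases before the RefSeq start in Ctsa, 98 and 245 bases before it in Ctsd, 79 in Ctsf and 236 in Ctsl, and Ctsa has another copy just after its start. In Ctsa, in the nearer copy of Ctsd and in Ctsl the printed stretch also overlaps an exon of the gene in GENCODE M21. Whether the capital letters themselves lie in that exon was not checked. A match is a run of letters, and no binding was measured here.

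None of the 10 cathepsins changed with genotype (limma with Benjamini-Hochberg adjustment over all genes tested, adjusted p from 0.866 to 0.959). Over all genes 0.0165% were called, 0.00825% higher and 0.00825% lower. At an unadjusted p under 0.05 the count among cathepsins was also 0 (4.13% of all genes), and limma-voom on the recovered reads likewise gave 0 at either level. The unadjusted count was 1, Ctsf, with limma without an intensity trend and again without KO replicate 3. Over all genes tested it was 557 of 12118 and 663 of 12011 in these settings. The log2 fold change of CPM + 1, KO minus WT, was positive for 7 members and negative for 3, with a median of 0.13 against 0.0015 for all genes tested. For 8 of the 10, all but Ctsb and Ctsd, the 95% interval on that scale held no change of 1.5-fold or more, which was so for 90.4% of all genes tested. For low genes such as Ctsf and Ctsk, a 1.5-fold change in CPM itself comes out smaller on that scale. Their intervals therefore do not exclude a 1.5-fold change in CPM.

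Ctsb encodes cathepsin B, which cuts both within proteins and from their carboxyl end. Its level was 11869, 11425 and 10723 CPM for KO replicates 1 to 3, and 7785, 11715 and 8278 CPM for WT replicates 1 to 3. WT replicate 2 lay inside the KO range, and the other WT libraries lay well below it. The means were 11339 ± 578.0 CPM in KO and 9259 ± 2141 in WT (SD, n = 3), which gives a log2 fold change of 0.32 (95% interval -0.12 to 0.75; limma, adjusted p = 0.866). Ctsb lies at chromosome 14: 63122462 to 63145923 on the plus strand (GRCm38) and shares at most 774 exon bases with Fdft1 on the other strand.

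Ctsd, the gene of the aspartic protease cathepsin D, was also lowest in WT replicates 1 and 3. Its values were 3441, 3457 and 2774 CPM in KO and 2199, 3260 and 2396 CPM in WT. As for Ctsb, WT replicate 2 was within the KO range and the other WT libraries below it. The log2 fold change was 0.31 (95% interval -0.07 to 0.70; limma, adjusted p = 0.866). Ctsd lies 83.1 Mb from Ube3a on chromosome 7 (142375911 to 142388038, minus strand) and shares 808 exon bases with Gm49369 on the same strand.

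Ctsa encodes cathepsin A, the protective protein that holds the sialidase Neu1 and the β-galactosidase Glb1 in a complex. It stood at 938.7, 928.6 and 823.0 CPM in KO and 684.5, 921.5 and 743.4 CPM in WT, a log2 fold change of 0.20 (95% interval -0.07 to 0.48). Again WT replicates 1 and 3 were the lowest libraries. Ctsa lies at chromosome 2: 164832873 to 164841032 on the plus strand, and its exons share at most 495 bases with a neighbour on the other strand (Pltp and Neurl2 both overlap it). Whether the counting used strand is not stated, so reads in such shared parts cannot be assigned.

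Ctss and Ctsz, the genes of the invariant chain protease cathepsin S and of the carboxypeptidase cathepsin Z, varied widely within both genotypes. Ctss stood at 1218, 790.7 and 1033 CPM in KO and 858.9, 1149 and 809.4 CPM in WT, so that KO replicate 2 was the lowest of all 6 libraries. Ctsz (chromosome 2: 174427493 to 174439039, minus strand) stood at 790.6, 672.0 and 579.2 CPM in KO and 548.8, 765.6 and 541.3 CPM in WT. Both had intervals that reached well to either side of 0, with log2 fold changes of 0.11 (-0.32 to 0.53) for Ctss and 0.15 (-0.22 to 0.51) for Ctsz. Without KO replicate 1 the Ctss value turned to -0.04 and the Ctsz value came to 0.03. Ctsz was 0.07 without WT replicate 1, 0.06 without WT replicate 3 and 0.26 without KO replicate 3.

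Ctsl, the gene of the endopeptidase cathepsin L, went the other way between libraries. It was highest in WT replicates 1 and 3, the libraries with the lowest Ctsb, at 1799 and 1528 CPM, and lowest in WT replicate 2, at 1196 CPM. The KO libraries held 1215, 1445 and 1347 CPM. Its log2 fold change was -0.16 (95% interval -0.51 to 0.19; limma, adjusted p = 0.878). Within a library, Ctsl came to 0.231, 0.102 and 0.185 of the CPM of Ctsb in WT replicates 1 to 3, and to 0.102, 0.126 and 0.126 in KO. In this ratio, chosen after the values were seen, WT replicates 1 and 3 lay above the KO libraries, and WT replicate 2 lay level with KO replicate 1, the lowest of them. At chromosome 13: 64359337 to 64370890 on the minus strand, Ctsl shares up to 1742 exon bases with Gm47123, an antisense gene, or Gm49230, a processed pseudogene on the same strand, so its level is uncertain by the reads of those parts.

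Ctsc, which encodes the dipeptidyl peptidase that activates the serine proteases of granules, was the steadiest member. Its 6 values lay between 476.7 and 515.2 CPM, a highest-to-lowest ratio of 1.08. The log2 fold change was -0.03 with a 95% interval of -0.18 to 0.12. Ctsc lies on chromosome 7 as well, at 88278085 to 88310888 on the plus strand, 29.0 Mb from Ube3a.

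In 2 members, Ctsf and Ctsh, the genotypes did not overlap, against 9.95% of all genes tested (4.41% with KO higher and 5.55% with KO lower). Ctsf, the gene of the cysteine protease cathepsin F (chromosome 19: 4855130 to 4860918, plus strand), stood at 4.32, 4.79 and 3.82 CPM in KO and 3.27, 3.36 and 3.80 CPM in WT, where KO replicate 3 exceeded WT replicate 3 by little. Its log2 fold change was 0.24 (95% interval -0.02 to 0.51; limma, adjusted p = 0.866) on 95 to 149 reads per library. Ctsh, the gene of the aminopeptidase cathepsin H (chromosome 9: 90054152 to 90076089, plus strand), stood at 46.7, 43.5 and 44.3 CPM in KO and 47.5, 51.8 and 46.9 CPM in WT. Here the KO libraries were the lower, by a log2 fold change of -0.12 (-0.27 to 0.04), and neither gene passed the threshold.

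Ctsk encodes cathepsin K, the collagen-cutting protease of osteoclasts. It had 34 to 62 reads per library and stood at 1.44, 1.09 and 1.91 CPM in KO and 1.18, 1.49 and 1.53 CPM in WT, with the highest and the lowest value both in KO. The log2 fold change of 0.04 had a 95% interval of -0.32 to 0.39 and turned to -0.08 without KO replicate 3 and to -0.03 without WT replicate 1. Acp5, the tartrate-resistant phosphatase that also marks osteoclasts, was likewise low, at 1.51 to 3.24 CPM over the 6 libraries. It is 1 of 8 osteoclast markers listed, of which 5 were measured. Together these 5 summed to 115.4 to 133.9 CPM in KO and 104.2 to 158.6 CPM in WT, most of it from Nfatc1, Itgb3 and Mmp9. The low level of Acp5 thus does not stand for the list, and the sum does not stand for Acp5. Ctsk ends 17.4 kb before Ctss on chromosome 3 (95499256 to 95509362 and 95526786 to 95556403, both on the plus strand), and the level of Ctss per kb was 582.2 CPM or more in every library while that of Ctsk was 1.26 or less.

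**Figure D2:**
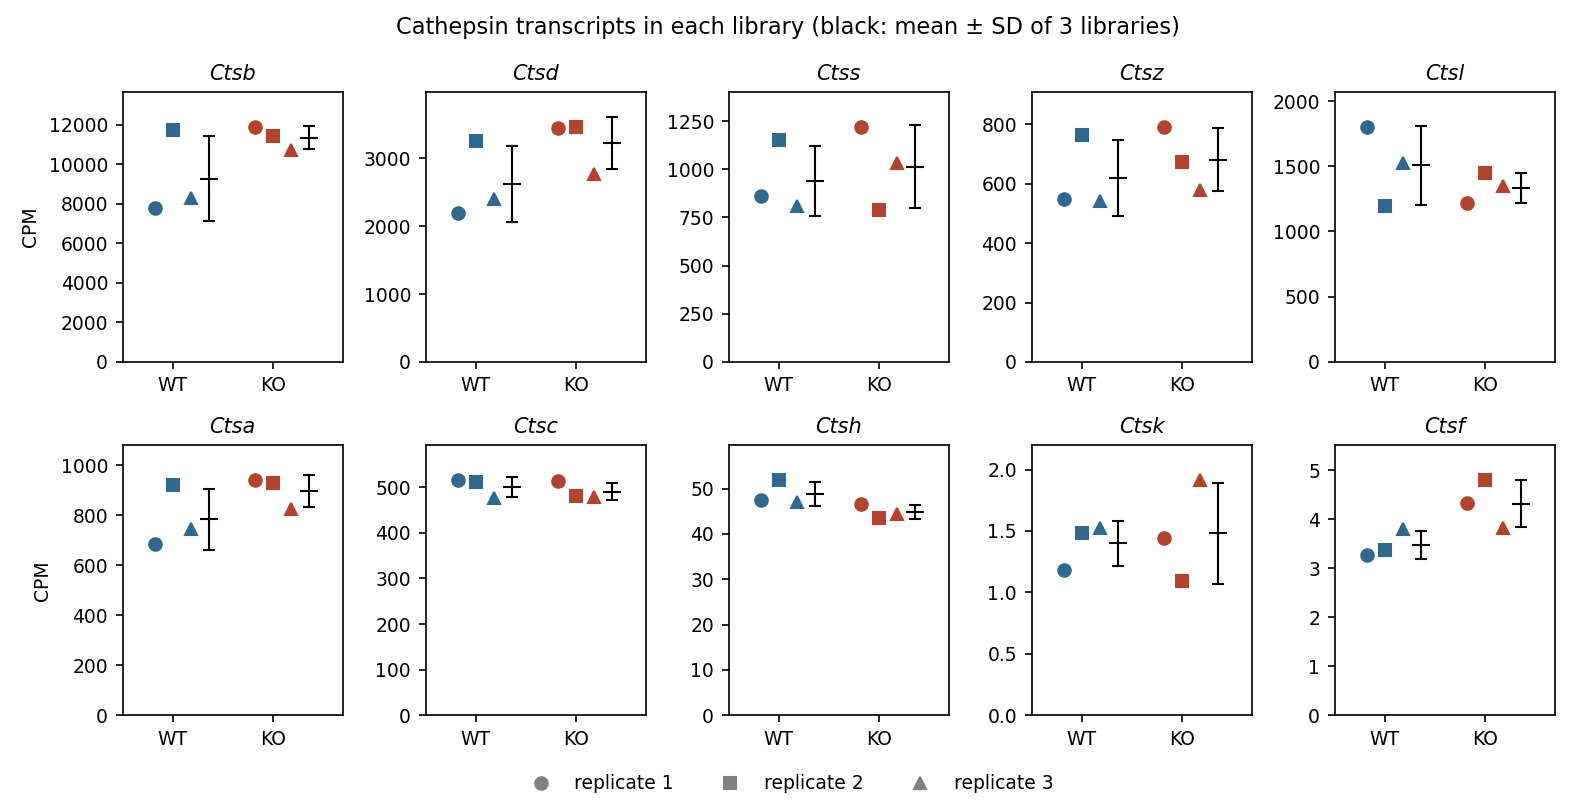
CPM of each cathepsin by genotype, with 1 point per library shaped by replicate number and the mean ± SD of 3 libraries in black (linear axes from 0, scaled per gene). For Ctsb, Ctsd and Ctsa the WT replicate 2 square lies beside the KO points, and WT replicates 1 and 3 lie below.

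Of the single libraries, WT replicate 2 moved the log2 fold changes of Ctsa, Ctsb, Ctsd, Ctsh, Ctsl and Ctsz most when left out. This was not so for Ctsc, Ctsf, Ctsk or Ctss, and Ctsf stood at 0.24 with all libraries and 0.23 without it. Among the 3 WT libraries, WT replicate 2 was the highest for 6 members (Ctsb, Ctsd, Ctsa, Ctss, Ctsz and Ctsh) and the lowest for 1, Ctsl. Over all genes tested it was the highest of the WT libraries for 38.9% and the lowest for 35.3%. The median spread within a genotype (SD of log2(CPM + 1)) was 0.21 for the cathepsins and 0.12 for all genes tested, or 0.0950 for the 2366 genes at a mean of 100 CPM or more, a limit chosen after the values were seen. Ctsc and Ctsh, at 0.06 each, were below both of these medians, and Ctss was highest at 0.29.

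Without WT replicate 2, the unadjusted p fell under 0.05 for 5 cathepsins, Ctsa, Ctsb, Ctsd and Ctsz on the higher and Ctsl on the lower side, where 10.6% of all genes did so. Their log2 fold changes were then 0.33, 0.50, 0.48, 0.31 and -0.32. None passed the adjusted threshold (limma, smallest adjusted p = 0.293). These counts without replicate 2 were added after seeing the data. Without replicate 2 of both genotypes the count was 6 (11.5% of all genes), with Ctss added at a log2 fold change of 0.43, and the smallest adjusted p, that of Ctss, was 0.126 (limma). Leaving out WT replicate 1 moved the values the other way, to 0.11 for Ctsa, 0.20 for Ctsb and for Ctsd and -0.02 for Ctsl.

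**Figure D3:**
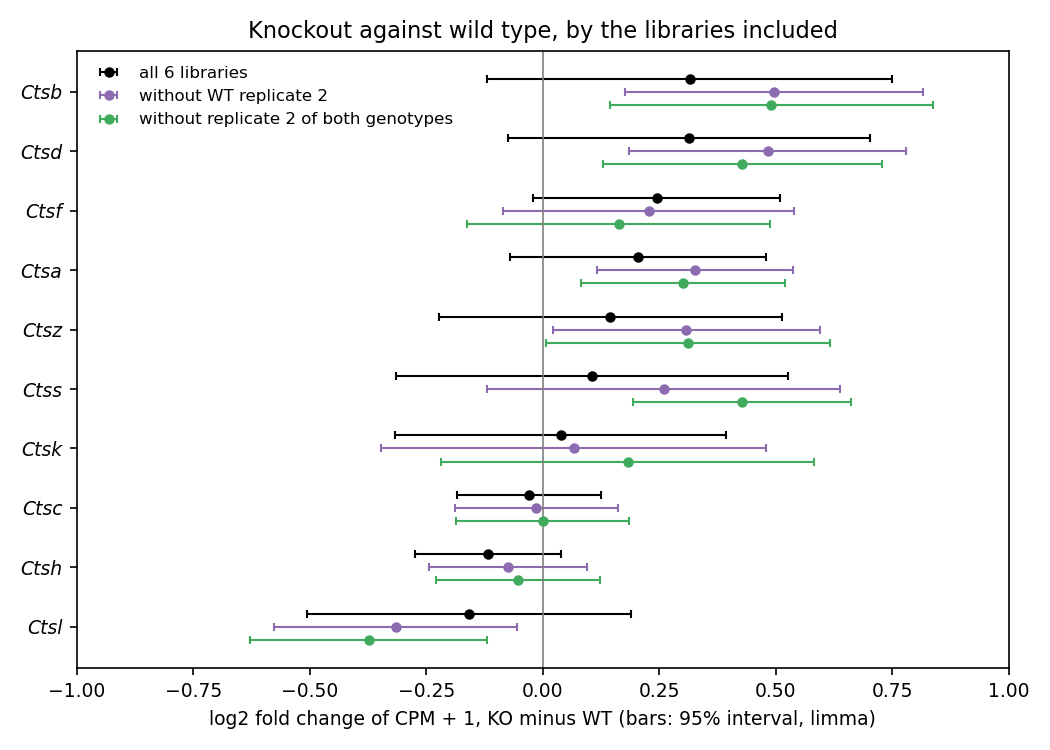
Log2 fold change of CPM + 1 (KO minus WT) for each cathepsin, with bars for the 95% limma interval, from all 6 libraries, without WT replicate 2, and without replicate 2 of both genotypes. With all 6 libraries each interval crosses 0; without WT replicate 2 those of Ctsb, Ctsd, Ctsa, Ctsz and Ctsl do not, yet none passes after adjustment.

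Markers of other cell types differed between the same libraries. For the neutrophil and granule markers the summed level was 32.7 and 28.4 CPM in WT replicates 1 and 3 and 10.2 CPM in WT replicate 2, against 8.20, 18.7 and 21.3 CPM in KO replicates 1 to 3. These were high where Ctsb was lowest. The 5 osteoclast markers measured summed to 104.2 and 110.5 CPM in WT replicates 1 and 3 and 158.6 CPM in WT replicate 2. In KO replicates 1 to 3 they summed to 133.9, 129.2 and 115.4 CPM, so that the sum was lowest in the libraries with the lowest Ctsb. Not every marker followed the sum. Dcstamp stood at 9.35, 13.0 and 10.3 CPM in WT and 7.76, 7.29 and 7.58 CPM in KO, and Acp5 was lowest in KO replicate 2. The part of either list in the cathepsin values was not tested.

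The genes that work with the cathepsins were read from lists of their pathway. Of 37 such genes tested, 0 changed (limma, adjusted p under 0.05), and 1, Mitf, had an unadjusted p under 0.05 (4.13% of all genes). Limma-voom gave the same counts. As for the cathepsins, the unadjusted count turned on replicate 2: it was 10 of 37 without WT replicate 2 (10.6% of all genes) and 14 of 37 without replicate 2 of both genotypes (11.5%), with 0 changed after adjustment in either. It was 0 of 36 without WT replicate 1, where few genes of any kind did so (146 of 12020).

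All 6 processing and complex partners (Lgmn, Psap, Neu1, Glb1, Tpp1 and Grn) had positive log2 fold changes, with a median of 0.20, and all 6 were highest in replicate 2 among the WT libraries. Lgmn encodes legumain, the asparaginyl endopeptidase that trims several cathepsins to their mature chains. It stood at 491.6, 469.5 and 482.9 CPM in KO and 318.3, 492.4 and 390.3 CPM in WT, again lowest in WT replicates 1 and 3, with WT replicate 2 just above every KO library. Its log2 fold change was 0.29 (95% interval -0.04 to 0.61; limma, adjusted p = 0.866), with values of 0.13 when WT replicate 1 was left out and 0.45 when WT replicate 2 was. Tpp1, a tripeptidyl peptidase of the lysosome, averaged 349.9 ± 18.3 CPM in KO and 307.4 ± 35.2 in WT (0.19).

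The 4 inhibitors tested (Cst3, Cst7, Cstb and Serpinb6a) had a median log2 fold change of 0.14. Cst3, the secreted cystatin C, averaged 403.3 ± 12.6 CPM in KO and 366.8 ± 42.2 in WT. Cst7, the lysosomal cystatin F, was low, at 2.75 to 6.72 CPM over the 6 libraries, with a log2 fold change of 0.38 (95% interval -0.17 to 0.93). Without WT replicate 1 the values were 0.044 for Cst3, where 0.14 was found with all libraries, and 0.13 for Cst7, and without WT replicate 2 that of Cst7 was 0.65. Of the other cathepsins, Ctse, an aspartic protease, averaged 29.5 ± 3.71 CPM in KO and 26.3 ± 2.08 in WT, and Ctso averaged 50.3 ± 5.47 and 49.6 ± 6.71 CPM. The log2 fold change of Ctse, 0.16 with all libraries, was 0.089 with KO replicate 1 left out, 0.097 with WT replicate 1 left out and 0.26 with KO replicate 2 left out. Ctsg, the neutrophil granule protease, was not found by name among the 16836 genes, so no level is given.

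Of the 13 sorting genes, which code for receptors and adaptors that carry enzymes to the lysosome, 8 had positive and 5 negative log2 fold changes (median 0.04). Gga2, a Golgi adaptor, averaged 97.2 ± 0.493 CPM in KO and 86.1 ± 11.5 in WT, and its relative Gga3 averaged 54.4 ± 1.68 and 51.0 ± 2.71 CPM. The log2 fold change of Gga2, 0.18 with all libraries, was 0.092 with WT replicate 1 left out and 0.28 with WT replicate 2 left out, and that of Gga3, 0.094, was 0.053 without WT replicate 1. The 8 class II antigen processing genes had a median of 0.05. Of these, H2-Eb1 and H2-Ab1 encode chains of the class II molecules whose invariant chain cathepsin S removes. Both were low, at 2.85 to 5.84 CPM for H2-Eb1 and 3.71 to 5.52 CPM for H2-Ab1 over the 6 libraries. Their log2 fold changes were 0.36 (95% interval -0.04 to 0.76) and 0.16 (-0.15 to 0.47). Without WT replicate 1 these were 0.19 and 0.03, and without WT replicate 2 that of H2-Ab1 was 0.26. H2 genes have close relatives, between which reads can be shared.

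The MiT/TFE factors drive lysosomal genes. Mitf stood at 64.1, 60.4 and 64.2 CPM in KO and 76.3, 69.0 and 69.1 CPM in WT, with no overlap and a log2 fold change of -0.18 (95% interval -0.33 to -0.03), but did not pass after adjustment (limma, adjusted p = 0.866). Tfeb had a log2 fold change of 0.13, and values of 0.085 when KO replicate 2 was left out, 0.073 when WT replicate 2 was and 0.22 when WT replicate 3 was. None of the 4 factors was highest in WT replicate 2 among the WT libraries (38.9% of all genes tested), and 3 were lowest there (35.3%). For Mitf, 1 of the 3, this was a near tie, at 68.97 CPM in WT replicate 2 and 69.10 CPM in WT replicate 3.

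**Figure D4:**
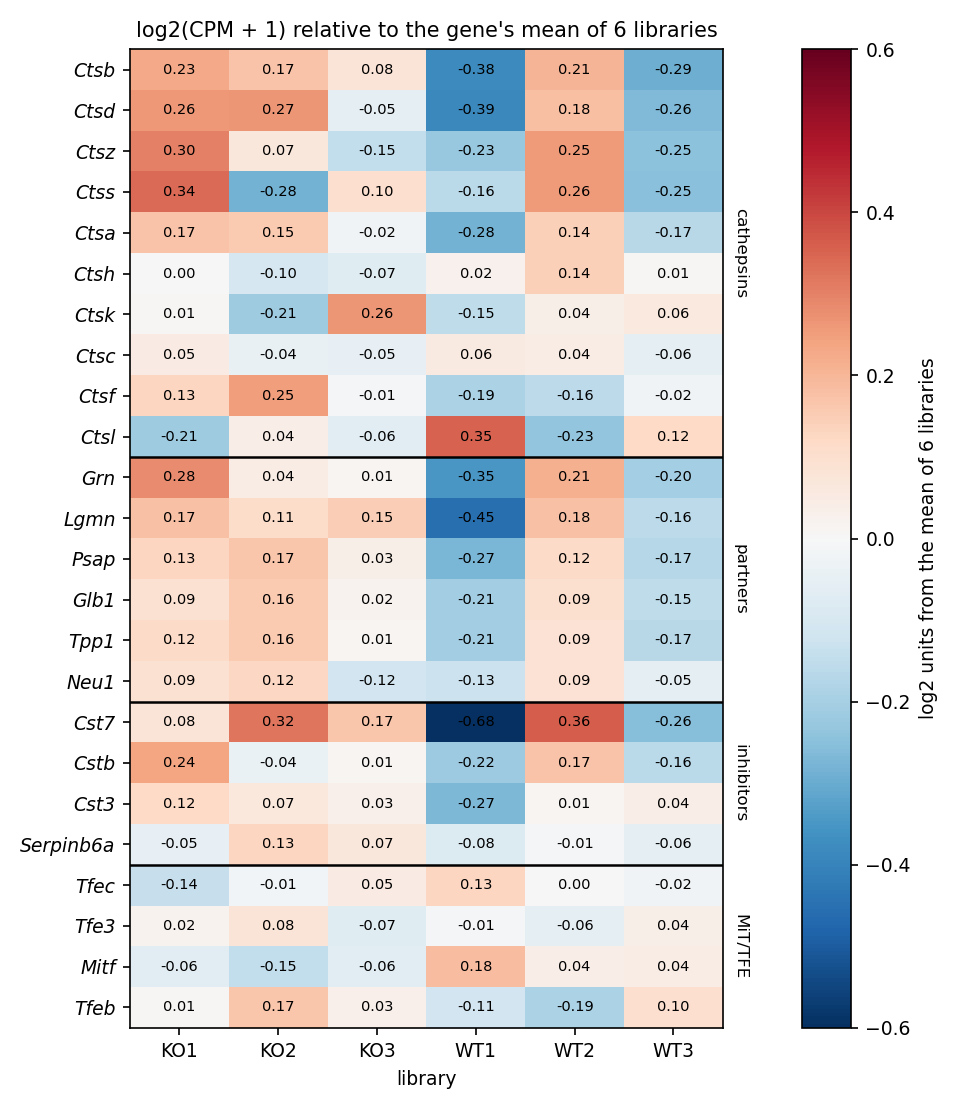
Log2(CPM + 1) of the cathepsins, their partners, inhibitors and the MiT/TFE factors in each library, relative to each gene's mean of 6 libraries (red higher, blue lower). Ctsb, Ctsd, Ctsa and the 6 partners are below their mean in WT1 and WT3 and above it in WT2, and Ctsl is the reverse.

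The genes whose profile over the 6 libraries lay nearest to that of the 3 most variable members were found among 8783 other genes with a mean of at least 10 CPM, by the root mean square difference of centred log2(CPM + 1). For Ctsd they were Vat1 (difference of 0.03 log2 units), Tecpr1 (0.03) and Fam219a (0.06). For Ctsb they were Nectin4 (0.04), Lgals3 (0.04) and Spsb2 (0.05), and for Ctss they were Ifi207 (0.05), Zcchc2 (0.06) and Slfn3 (0.06). Lgals3, the gene of galectin-3, shows the order of Ctsb at 1949, 1714 and 1632 CPM in KO and 1248, 1823 and 1281 CPM in WT. Ifi207, a PYHIN family gene, was like Ctss highest in KO replicate 1 and WT replicate 2 and lowest in KO replicate 2, at 340.9, 204.3 and 271.8 CPM in KO and 224.2, 309.9 and 232.3 CPM in WT. These are descriptions of 6 libraries and were picked from many genes.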

How the data were processed

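Per the labels' protocols, Direct-zol columns served for RNA and the KAPA mRNA HyperPrep kit for libraries. The tools named, per the submitters' processing notes, are FastQC 0.11.15, Trimmomatic 0.36, HISAT2 2.1.0, Cufflinks and HTSeq 0.11.0. What each did, the build and the use of strand are not stated there. Deposited by the authors were log2 CPM per library, a log2 fold change and an unadjusted p-value per gene. The deposited p-value column was used only for a check. Limma-voom was fitted to all genes, and over the 16830 deposited p-values that could be read the largest relative gap was 3.85e-09. The decimal mark of values of size 1 or more had been lost. It was restored by requiring that 2 to the power of a value, less a shared offset, is a whole number of reads, which held for 100% of values within 1e-06. CPM are these reads over the library size that each step implies.

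Genes that reached 1 CPM in 3 or more libraries were fitted as log2(CPM + 1) with limma 3.58.1 (intensity trend, R 4.3.3), genotype as the only term. For low genes such as Ctsf and Ctsk, fold changes on this scale are too small. The threshold was a two-sided adjusted p of 0.05 (Benjamini-Hochberg over all genes tested). Reading and fitting were tested on simulated data. Positions and lengths come from GENCODE M21 on GRCm38, and 16820 of the 16836 genes matched. The members and lists were chosen with earlier results of these data known, and the genes named from each list are its changed genes, or else those with the 2 smallest p-values. Libraries of one genotype differed beyond sampling noise (chi-square per degree of freedom 10.1 to 40.3), so none were merged. Alternatives changed the pseudocount, the filter, the library size, the test (limma-voom, or no trend) and the libraries used, or added the replicate number as a block. As a further choice, the length of the longest transcript was added after seeing the data.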

Additional observations from a re-analysis of the deposited data

How the results depend on the processing

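No cathepsin passed the threshold under any of 16 alternatives (smallest limma adjusted p = 0.126, for Ctss), and 157 of their 160 values kept their direction. With 1 library left out, 4 genes crossed 0. Ctsk ranged from -0.083 (without KO replicate 3; -0.03 without WT replicate 1) to 0.16, and Ctss from -0.038 (without KO replicate 1) to 0.27. Ctso ranged from -0.060 (without WT replicate 1; -0.02 without KO replicate 1 and also without KO replicate 3) to 0.125, and Acp5 from -0.15 (without KO replicate 1) to 0.23. The cathepsin and pathway counts stayed at 0. The count of changed genes, 2 as reported, was 1 with a pseudocount of 5 CPM, with no filter, with limma-voom and without a trend, 24 without replicate 2 of both genotypes, and 1 to 8 with 1 library left out, where fewer samples entered; the cause was not tested. Without WT replicate 2 it was 8. Ube3a passed in all 16.

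Deviations of same-numbered libraries from their genotype means correlated over genes at -0.216, -0.134 and 0.140. KO replicate 1 went best with WT replicate 2 (0.398). From 3 libraries per genotype, each centred on its group mean, these correlations cannot show whether the replicate numbers pair the samples. Replicate 2 was the library with few Xist reads in both genotypes. With the replicate block 2 genes changed and no cathepsin. Depth limits Ctsk, at 34 to 62 reads per library, and Ctsf, whose log2 fold change was 0.24 as reported and 0.13 with a pseudocount of 5 CPM.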
